A study of Mus musculus with 16 samples.

Results

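The chemokine receptor Cxcr4, its ligand Cxcl12, the decoy receptor Ackr3 and 4 genes best known from lymphoid or myeloid cells (Cd2, Clec2d, Lyz2 and Cd68) were described in AtT-20 cells, a mouse pituitary corticotroph tumour line that makes the Pomc hormone precursor. These 7 genes, of 24063 in each deposited table, were taken by symbol. They were selected on their levels in this line and on how they differed between Pax7 and Neo cells, so their Pax7 and Neo values are a description with no test. RNA was sequenced in 16 libraries of 6 groups, all of AtT-20 cells at passages 10 to 20. Untreated cells expressing 3x flag-Pax7 (2 libraries) stood against untreated cells expressing 3x flag-Neo (2 libraries). Cells expressing 3x flag-ER-Pax7 were given 4-hydroxytamoxifen for 0, 12, 24 or 96 h (3 libraries each). The labels name no treated Neo cells, so 4-hydroxytamoxifen, time in culture and activation of ER-Pax7 cannot be told apart. Nor do they state whether replicates were separate cultures; the p-values then reflect only library-to-library spread, which may be technical.

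Cxcr4 is a G protein-coupled receptor that, on binding Cxcl12, signals through inhibitory G proteins and steers migrating cells. It is best known for holding blood stem cells in bone marrow and for leukocyte homing, and in human pituitary adenomas both receptor and ligand have been described. Ackr3 binds the same ligand but acts mainly as a scavenger. Cd2 is an adhesion receptor of T and NK cells whose mouse ligand is Cd48. Clec2d is a C-type lectin-like protein recognised by the NK receptor Klrb1b. Lyz2 is the lysozyme of macrophages and granulocytes, and Cd68 is a lysosomal membrane glycoprotein abundant in macrophages.

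The transcription factor introduced was checked first. Pax7 was at 2.39 and 2.38 FPKM in Pax7 cells, against 0 and 0.01 FPKM in Neo cells. In ER-Pax7 cells Pax7 lay between 1653 and 1911 scaled exon reads and Esr1, the estrogen receptor gene, between 1064 and 1296, whereas Esr1 was listed at 0 in all 4 Pax7 and Neo libraries. Pax7 mRNA itself was slightly higher at 96 h than at 0 h (log2 difference 0.13, limma, adjusted p = 0.0128), while the Esr1 difference did not pass the threshold (0.13, limma, adjusted p = 0.0575). The ER-Pax7 table holds exon reads scaled to one common total (61.3 to 88.8 M reads recovered per library), and the Pax7 and Neo table holds FPKM over whole gene bodies, introns included, so levels were compared only within a table.

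In ER-Pax7 cells before treatment, Cxcl12 was the most abundant of the genes described, at 208 ± 6.75 scaled exon reads per kb of exon (SD, n = 3). Cxcr4 (57.6 ± 3.42) and Lyz2 (55.4 ± 3.07) came next and their ranges over libraries overlapped. Cd2 followed at 39.2 ± 6.38 scaled exon reads per kb, then Clec2d at 8.42 ± 1.53 and Cd68 at 6.83 ± 1.02, which overlapped each other. Ackr3 had no read in 11 of 12 ER-Pax7 libraries and 2 reads in the 96 h library 2, and was listed at 0 in all 4 Pax7 and Neo libraries. At 96 h the order was Cxcl12 (225 ± 10.4), Lyz2 (43.6 ± 2.10), Cxcr4 (40.7 ± 1.05), Cd2 (12.0 ± 3.43), Cd68 (5.81 ± 0.76) and Clec2d (4.32 ± 0.64), with overlap only between Lyz2 and Cxcr4. Receptor and ligand were thus both expressed in these cells, while the scavenging receptor was at the limit of detection. The reads behind these values ranged from 683 to 1195 per library for Cxcr4 and from 3052 to 4950 for Cxcl12. They were fewer for Cd2 (86 to 540), Clec2d (42 to 101) and Cd68 (64 to 103), where counting error alone came to 10.8%, 15.4% and 12.5% at the lowest read number.

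Markers of leukocytes were unevenly present beside the genes of immune type. Of 30 lymphoid markers 18 had a read in some 0 h library. Pax5, the B cell transcription factor, was at 3.07 to 5.6 scaled exon reads per kb over the 12 libraries, which overlaps Clec2d (3.70 to 9.74). Cd7 (1.1 to 4.74), Zap70 (0.75 to 2.9) and Cd79a (0.89 to 1.84) were also present. Of the same list, 8 had no read in any ER-Pax7 library (Cd3e, Cd6, Cd79b, Blk, Klrd1, Klrk1, Ncr1 and Gzmb), and the leukocyte marker Ptprc (CD45) stayed between 0 and 0.16 scaled exon reads per kb. The lymphoid sum of 271 to 302 scaled exon reads per library was mostly Cd247, the T cell receptor zeta chain (77.7 to 89.9 per kb), and Cd3g (12.7 to 21.7 per kb). Among 28 myeloid markers 14 had a read in some 0 h library. C1qa was at 0.74 to 3.46 scaled exon reads per kb over the 12 libraries, Fcgr3 at 0.54 to 2.92 and Mrc1 at 0.78 to 1.97. Of this myeloid list, 6 had no read in any ER-Pax7 library (S100a9, C1qb, C1qc, Trem2, Cd33 and Itgax), and Itgam, Emr1, Spi1 and Tyrobp had a median of 0. The myeloid sum was 76.9 to 86.1 scaled exon reads at 96 h, against 94.1 to 110 at 0 h, and was mostly Coro1a, a leukocyte actin-binding protein (36.6 to 56.4 per kb). In Pax7 and Neo cells, 14 lymphoid markers, Ptprc included, and 12 myeloid markers were listed at 0 throughout. The lymphoid markers summed to 1.25 and 1.31 FPKM in Pax7 cells, against 1.14 and 1.23 FPKM in Neo cells, and the myeloid markers to 1.66 and 1.79 FPKM in Pax7 cells, against 2.29 and 2.38 FPKM in Neo cells. All 7 corticotrope markers were present, Pomc highest at 64640 to 83300 scaled exon reads per kb, and Tbx19, the T-box factor of the Pomc lineages, at 1009 to 1333 per kb. Because these are bulk samples, fewer cells expressing a gene and less RNA per cell cannot be told apart in any value below.

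**Figure D1:**
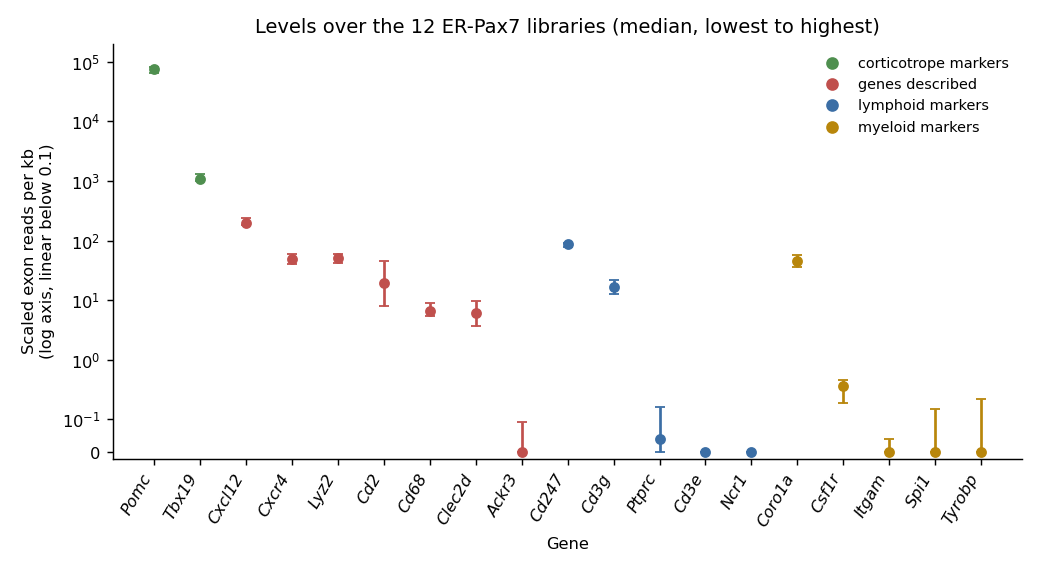
Levels per kb of exon on a log axis (linear below 0.1 scaled exon reads per kb) in the 12 ER-Pax7 libraries, with points at the median and bars from the lowest to the highest library. The genes described, other than Ackr3, lie below Pomc and Tbx19. They lie above Csf1r and above the leukocyte markers Ptprc, Cd3e, Ncr1, Itgam, Spi1 and Tyrobp, which lie at or near 0. Cd247, Cd3g and Coro1a lie in the range of the genes described. Only some markers are drawn. Of those left out, Neurod1 (162.9 to 222.2) overlaps Cxcl12, and Pitx1 (52.5 to 71.9) overlaps Cxcr4 and Lyz2. Crhr1 (3.69 to 8.91), Pax5 and Cd7, also left out, overlap Clec2d.

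Promoters are shown for Cxcr4, Clec2d and Lyz2, which were lower at 96 h than at 0 h in ER-Pax7 cells, and for Cxcl12, which was not. Of the 7 genes 6 matched an entry among the RefSeq promoter windows (GRCm38.p6, 250 bases before to 50 after the start). The gene without an entry was Cd2, which was also lower at 96 h. Each is printed 5′ to 3′ on the strand of the gene, and capitals mark the motifs found on either strand, the GC box GGGCGG and the TATA box TATAAA. The windows are chr1:128592250-128592549 (minus strand) for Cxcr4, chr6:117168285-117168584 (plus strand) for Cxcl12, chr6:129180365-129180664 (plus strand) for Clec2d and chr10:117282223-117282522 (minus strand) for Lyz2.
Cxcr4: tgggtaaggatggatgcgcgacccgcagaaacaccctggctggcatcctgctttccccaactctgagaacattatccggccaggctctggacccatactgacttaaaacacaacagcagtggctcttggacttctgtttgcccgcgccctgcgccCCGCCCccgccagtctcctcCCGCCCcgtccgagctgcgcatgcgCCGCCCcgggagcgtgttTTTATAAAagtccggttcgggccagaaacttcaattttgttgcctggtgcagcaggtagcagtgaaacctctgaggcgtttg
Cxcl12: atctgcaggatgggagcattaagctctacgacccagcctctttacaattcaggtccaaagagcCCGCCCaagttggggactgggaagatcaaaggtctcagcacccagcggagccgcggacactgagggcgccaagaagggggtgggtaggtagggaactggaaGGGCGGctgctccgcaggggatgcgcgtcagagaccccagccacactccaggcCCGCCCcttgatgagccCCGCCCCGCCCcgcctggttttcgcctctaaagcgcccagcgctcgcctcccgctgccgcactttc
Clec2d: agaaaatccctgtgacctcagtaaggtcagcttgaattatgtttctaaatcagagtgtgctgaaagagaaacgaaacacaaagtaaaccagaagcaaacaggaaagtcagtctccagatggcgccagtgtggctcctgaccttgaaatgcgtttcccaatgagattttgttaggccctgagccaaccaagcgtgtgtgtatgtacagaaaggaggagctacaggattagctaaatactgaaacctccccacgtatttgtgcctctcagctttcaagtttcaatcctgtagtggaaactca
Lyz2: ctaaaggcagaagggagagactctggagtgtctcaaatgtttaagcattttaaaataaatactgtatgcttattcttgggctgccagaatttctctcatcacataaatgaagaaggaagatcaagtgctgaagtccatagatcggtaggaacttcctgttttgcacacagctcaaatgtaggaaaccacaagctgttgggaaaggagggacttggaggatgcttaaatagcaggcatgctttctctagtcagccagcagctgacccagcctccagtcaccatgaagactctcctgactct

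The Cxcr4 window held 3 GC boxes and overlapping TATA matches on opposite strands (positions -32 and -30 from the start), and the Cxcl12 window held 5 GC boxes, 2 of which overlap (positions -16 and -11). The Clec2d and Lyz2 windows held neither motif. Ackr3 had 1 match of each and Cd68 had 1 GC box. Among 32851 mouse promoters of the same length, 35.7% held GGGCGG and 13.6% held TATAAA. The homeodomain palindrome TAATTA, held by 5.29% of all promoters, was in none of the 6 windows, which says only that these letters are not there. GC content was 59.3% for Cxcr4 and 64.7% for Cxcl12, against 44.3% for Clec2d and for Lyz2 and a median of 52.7% over all promoters.

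Cxcr4 was lower in Pax7 than in Neo cells, and its ligand was slightly higher. Cxcr4 (chr1:128588199-128592299, mm10) was at 0.60 and 0.70 FPKM in the 2 Pax7 libraries, against 4.03 and 3.35 FPKM in the 2 Neo libraries. The Pax7 mean was 0.168 times the Neo mean, a log2 difference of -2.40 on log2(FPKM + 0.1). Its ligand Cxcl12 (chr6:117168535-117175069) was at 11.94 and 11.56 FPKM in Pax7 cells, against 10.48 and 9.44 FPKM in Neo cells, a log2 difference of 0.17. Ligand and receptor thus went opposite ways, and in neither gene did the libraries of the groups overlap. The Cxcl12 to Cxcr4 ratio of FPKM was 19.9 and 16.5 in the Pax7 libraries, against 2.60 and 2.82 in the Neo libraries.

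The 4 genes of immune type split into a lower and a higher pair in Pax7 cells. Cd2 (chr3:101275908-101287939) was at 0.08 and 0.10 FPKM in Pax7 cells, against 0.49 and 0.63 FPKM in Neo cells (log2 difference -1.84). Lyz2 (chr10:117277541-117282272) was at 0.25 and 0.27 FPKM in Pax7 cells, against 0.72 and 0.74 FPKM in Neo cells (-1.26). Both were lower in each Pax7 library than in each Neo library, and Cd2 reached the filter on low values in both Neo libraries. Clec2d (chr6:129180615-129186535) was at 0.54 and 0.68 FPKM in Pax7 cells, against 0.13 FPKM in both Neo libraries (log2 difference 1.57). Cd68 (chr11:69664213-69666170) was at 0.33 and 0.43 FPKM in Pax7 cells, against 0.17 FPKM in both Neo libraries (0.77). Both of these were higher in each Pax7 library. All of these levels except that of Cxcl12 are low, and the size of each log2 difference depends on the pseudocount, since with 1 FPKM added that of Cxcr4 was -1.55, Cd2 -0.53, Lyz2 -0.48, Clec2d 0.49 and Cd68 0.22. The groups did not overlap for 6 of the 7 genes, beside 69% of all genes tested; since this contrast chose the genes, nothing is read from that count. In the authors' deposited table the false discovery rate of all 7 genes in this contrast was 1. Its log2 folds differed from those above, at -1.87 for Cxcr4, 0.07 for Cxcl12, -3.17 for Cd2 and for Lyz2, 3.17 for Clec2d and 0 for Cd68. Cd2, Lyz2 and Clec2d share exactly the same size (3.169925001) although their FPKM ratios differ, and Cd68 is at 0 although its FPKM differed. These deposited folds are thus not read as sizes of change, and their origin was not tested.

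**Figure D2:**
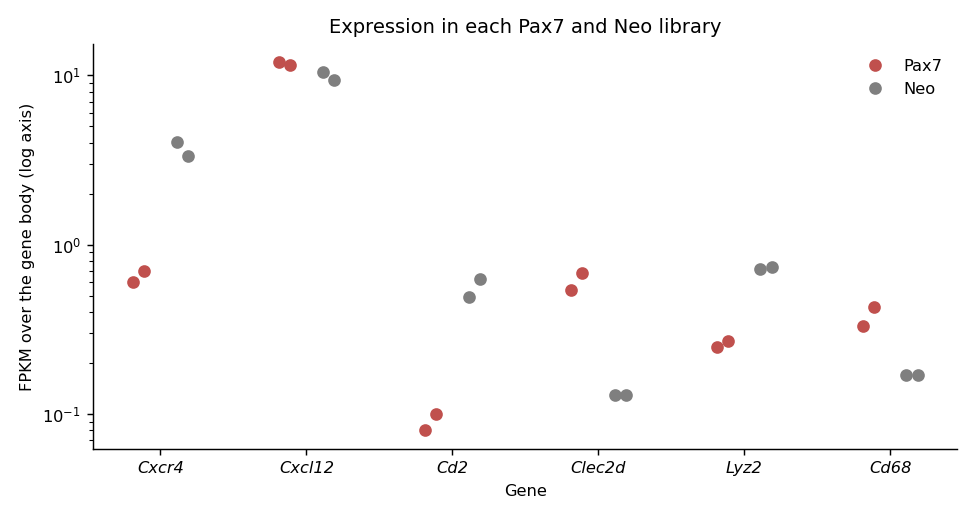
FPKM over the gene body on a log axis for each of the 2 Pax7 and 2 Neo libraries, 1 point per library. Cxcr4, Cd2 and Lyz2 lie lower in both Pax7 libraries, Clec2d and Cd68 lie higher, and Cxcl12 is close, at 11.94 and 11.56 FPKM in Pax7 cells against 10.48 and 9.44 FPKM in Neo cells; Ackr3 is listed at 0 and not drawn.

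After 4-hydroxytamoxifen in ER-Pax7 cells, Cxcr4 fell in 2 steps, by 12 h and between 24 and 96 h. Cxcr4 was at 108.6, 106.9 and 97.1 scaled exon reads in the 3 libraries at 0 h, at 87.6, 82.9 and 92.8 at 12 h, at 88.9, 96.3 and 84.9 at 24 h, and at 75.9, 72.5 and 72.7 at 96 h. Every treated library was below every 0 h library, and every 96 h library was below all others, whereas the 12 and 24 h libraries overlapped. After division by TMM factors the means were 105 ± 6.37, 87.9 ± 4.63, 89.3 ± 5.36 and 73.7 ± 1.91 scaled exon reads at 0, 12, 24 and 96 h (SD, n = 3 each). The log2 difference from 0 h was -0.25 ± 0.07 (SE) at 12 h (limma, adjusted p = 0.0304). It was -0.23 ± 0.07 at 24 h (limma, adjusted p = 0.0312) and -0.50 ± 0.07 at 96 h (limma, adjusted p = 9.45e-06). At 96 h Cxcr4 was thus 0.708 times its level at 0 h. Between 96 and 24 h it fell by a further 0.27 ± 0.07 on the log2 scale (limma, adjusted p = 0.0116). The calls at 12 and 24 h are the least secure. The 12 h call ended without 0 h library 1 or 2 or 12 h library 1 or 2 (log2 -0.25 to -0.21, limma, adjusted p 0.0881 to 0.126). The 24 h call ended without 0 h library 1 or 2 or 24 h library 1 or 3 (-0.22 to -0.19, limma, adjusted p 0.0958 to 0.121). The difference between 96 and 24 h ended without 24 h library 2 (-0.23, limma, adjusted p = 0.0737). In the authors' deposited table Cxcr4 had a false discovery rate of 0.882 at 12 h, 0.615 at 24 h and 9.38e-04 at 96 h, and 0.472 for 96 h against 24 h.

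The ligand followed another course, lower at 12 and 24 h and back at or above its starting level at 96 h. Cxcl12 was at 377, 391 and 402 scaled exon reads at 0 h, at 335, 337 and 362 at 12 h, at 353, 344 and 350 at 24 h, and at 422, 403 and 441 at 96 h. All 12 and 24 h libraries were below all 0 h libraries. In these deposited values the 96 h libraries were the highest of all 12, the lowest of them by a narrow margin (402.52 scaled exon reads at 96 h, against 402.25 at 0 h). After division by TMM factors 96 h library 2 (401.2) lay below 0 h library 3 (403.7), so the 96 and 0 h groups overlapped. In the authors' deposited table the false discovery rate of Cxcl12 was 0.164 at 12 h, 0.0894 at 24 h and 0.374 at 96 h against 0 h, and 2.61e-04 for 96 h against 24 h. The log2 difference from 0 h was -0.18 ± 0.04 (SE) at 12 h (limma, adjusted p = 0.0131) and -0.18 ± 0.04 at 24 h (limma, adjusted p = 0.00904). At 96 h it was 0.11 ± 0.04 and did not pass the threshold (limma, adjusted p = 0.0748), while 96 h was higher than 24 h by 0.28 ± 0.04 (limma, adjusted p = 2.12e-04). The 12 h call ended without 0 h library 2 or 3 or 12 h library 1 (-0.18 to -0.16, limma, adjusted p 0.0509 to 0.0754), and the 96 h difference from 0 h passed without 96 h library 2 (0.14, limma, adjusted p = 0.0348). The Cxcl12 to Cxcr4 ratio per kb of exon was 3.36, 3.54 and 4.00 in the 0 h libraries, 3.70, 3.93 and 3.77 at 12 h, 3.84, 3.46 and 3.98 at 24 h, and 5.37, 5.37 and 5.87 at 96 h. The ratios overlapped among the first 3 times and were higher in each 96 h library. The Pax7 ratios were also higher than the Neo ratios. Because the genes were selected on that contrast, nothing is read from this likeness.

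**Figure D3:**
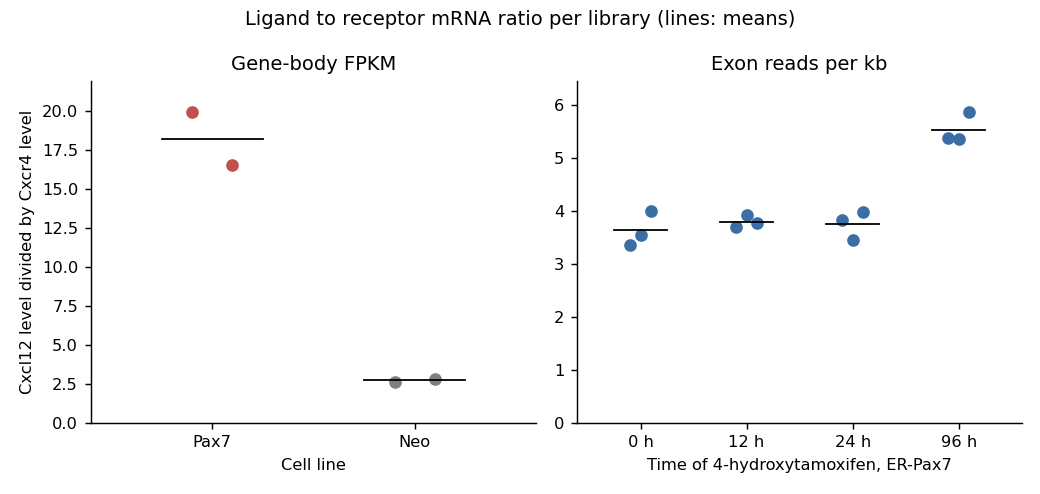
Cxcl12 level divided by Cxcr4 level in each library, left from gene-body FPKM in Pax7 and Neo cells and right from scaled exon reads per kb in ER-Pax7 cells by time, with lines at the means. The Pax7 libraries stand at 19.9 and 16.5 against 2.60 and 2.82 in Neo, and the 96 h libraries at 5.37 to 5.87 above all earlier ER-Pax7 libraries.

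Cd2 had the largest change of the genes described in ER-Pax7 cells. It was at 52.1, 37.6 and 43.9 scaled exon reads at 0 h, at 21.9, 22.1 and 26.9 at 12 h, at 22.9, 17.2 and 22.7 at 24 h, and at 15.7, 9.12 and 16.0 at 96 h. Each treated library was below each 0 h library, and each 96 h library was below each 24 h library. The log2 difference from 0 h was -0.88 ± 0.17 (SE) at 12 h (limma, adjusted p = 0.00195), -1.07 ± 0.17 at 24 h (limma, adjusted p = 1.49e-04) and -1.67 ± 0.17 at 96 h (limma, adjusted p = 1.80e-07). At 96 h only 12 of 15188 genes tested had a lower log2 difference. The step between 96 and 24 h was -0.60 ± 0.17 (limma, adjusted p = 0.0241). That step did not pass without 24 h library 1 (-0.53, limma, adjusted p = 0.0831), 24 h library 3 (-0.53, limma, adjusted p = 0.0901) or 96 h library 2, whose Cd2 was the lowest (-0.35, limma, adjusted p = 0.167). It also did not pass with no filter on low values (-0.60, limma, adjusted p = 0.0869). In the authors' deposited table Cd2 had a false discovery rate of 0.00128 at 12 h, 2.80e-05 at 24 h and 4.15e-11 at 96 h, and 0.454 for 96 h against 24 h.

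Clec2d and Lyz2 were lower at 96 h and did not pass the threshold at 12 or 24 h. Clec2d was at 10.6, 11.8 and 8.13 scaled exon reads at 0 h, at 8.34, 6.10 and 6.93 at 12 h, at 7.63, 8.90 and 5.04 at 24 h, and at 6.0, 4.46 and 5.19 at 96 h. The 12 and 24 h libraries overlapped those at 0 h, and the 96 h libraries did not. The log2 difference from 0 h was -0.84 ± 0.19 (SE) at 96 h (limma, adjusted p = 0.00156), after -0.46 at 12 h (limma, adjusted p = 0.195) and -0.48 at 24 h (limma, adjusted p = 0.106). This direction is the opposite of that between Pax7 and Neo cells. Lyz2 was at 61.9, 56.1 and 56.6 scaled exon reads at 0 h, at 54.7, 47.8 and 56.1 at 12 h, at 44.6, 53.2 and 57.1 at 24 h, and at 47.7, 43.4 and 46.2 at 96 h. Part of its reads may belong to the copy Lyz1, described below. Its log2 difference from 0 h was -0.35 ± 0.09 at 96 h (limma, adjusted p = 0.00683), after -0.14 at 12 h (limma, adjusted p = 0.501) and -0.19 at 24 h (limma, adjusted p = 0.200). In the authors' deposited table the false discovery rate at 96 h was 0.163 for Clec2d and 0.190 for Lyz2, so neither passed 0.05 there.

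Cd68 gave no call at any time. It was at 7.52, 9.90 and 7.97 scaled exon reads at 0 h, at 7.10, 8.68 and 8.75 at 12 h, at 8.44, 11.0 and 6.93 at 24 h, and at 6.60, 8.28 and 6.71 at 96 h. All groups overlapped. The log2 difference at 96 h was -0.21 with a 95% interval from -0.56 to 0.14 (limma, adjusted p = 0.362).

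**Figure D4:**
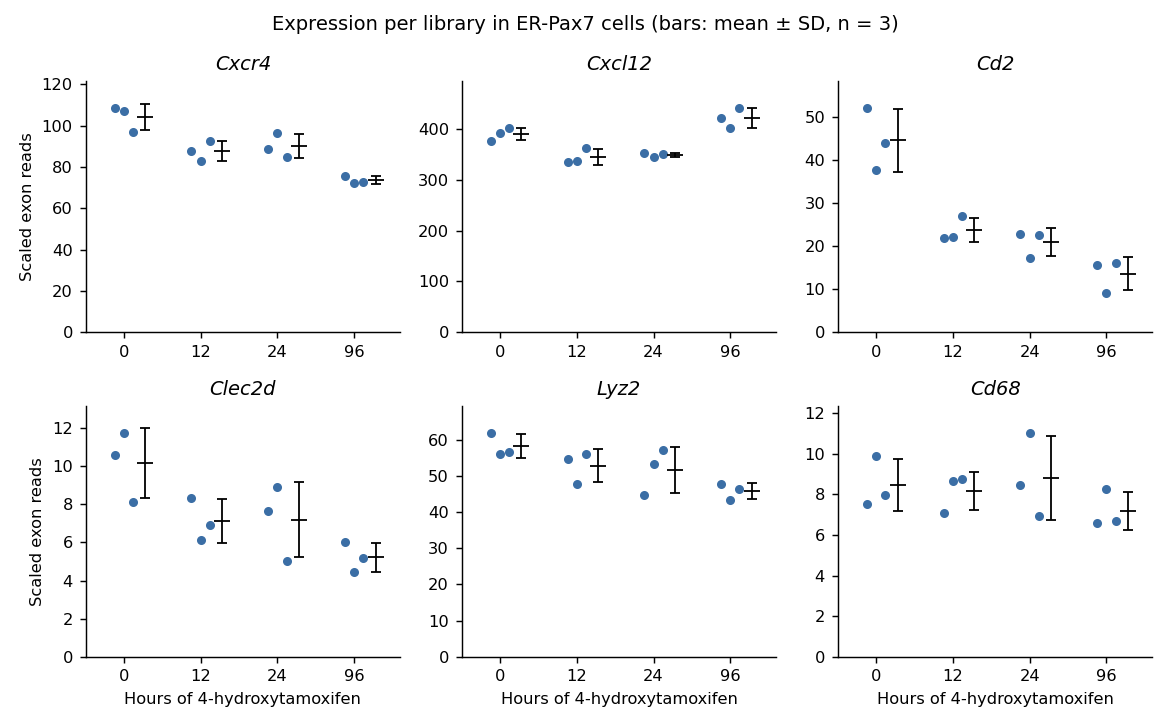
Scaled exon reads in each ER-Pax7 library against hours of 4-hydroxytamoxifen, with black bars for the mean ± SD (n = 3) of the deposited values. Cxcr4, Cd2, Clec2d and Lyz2 are lowest at 96 h, Cxcl12 is lowest at 12 and 24 h and highest at 96 h, and the Cd68 groups overlap.

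Read against all genes, the early changes were few. At 12 h 3 of the 7 genes (Cxcr4, Cxcl12 and Cd2) were called lower and none higher, beside 3.71% of all genes tested called lower and 6.49% in either direction. At 24 h the same 3 genes were called lower and none higher, beside 8.07% lower and 13.5% in either direction. At both times the libraries of these 3 genes did not overlap those at 0 h, which held for 20.3% of all genes at 12 h and 28.8% at 24 h. At 96 h 4 of the 7 genes (Cxcr4, Cd2, Clec2d and Lyz2) were called lower and none higher. The background at 96 h was 17.4% called lower and 33.7% in either direction, so single calls at that time were common. In deposited values the groups did not overlap for 5 of the 7 genes at 96 h, beside 46% of all genes. Cxcl12 is among these 5, but its groups overlapped after division by TMM factors. Between 24 and 12 h limma called none of the 7, beside 0.171% of all genes; none had an unadjusted p under 0.05, and edgeR and DESeq2 on recovered reads called none either. Between 96 and 24 h Cxcr4 and Cd2 were called lower, beside 6.54% of all genes, and Cxcl12 higher, beside 6.16%, with 12.7% called in either direction. In the test over all 4 times 5 of the 7 were called, beside 30.3% of all genes. That test called Lyz2 (limma, adjusted p = 0.0434) and Clec2d (limma, adjusted p = 0.0123), and passed over Cd68 (limma, adjusted p = 0.655). It was lost for Clec2d without 0 h library 2 or 96 h library 2 (limma, adjusted p 0.0678 and 0.0542). For Lyz2 it was lost with no filter (limma, adjusted p = 0.0984) and on leaving out any of 8 libraries, all but 12 h libraries 2 and 3 and 24 h libraries 1 and 3, up to an adjusted p of 0.161 without 96 h library 2 (limma). Ackr3 did not pass the filter on low values and was not tested.

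**Figure D5:**
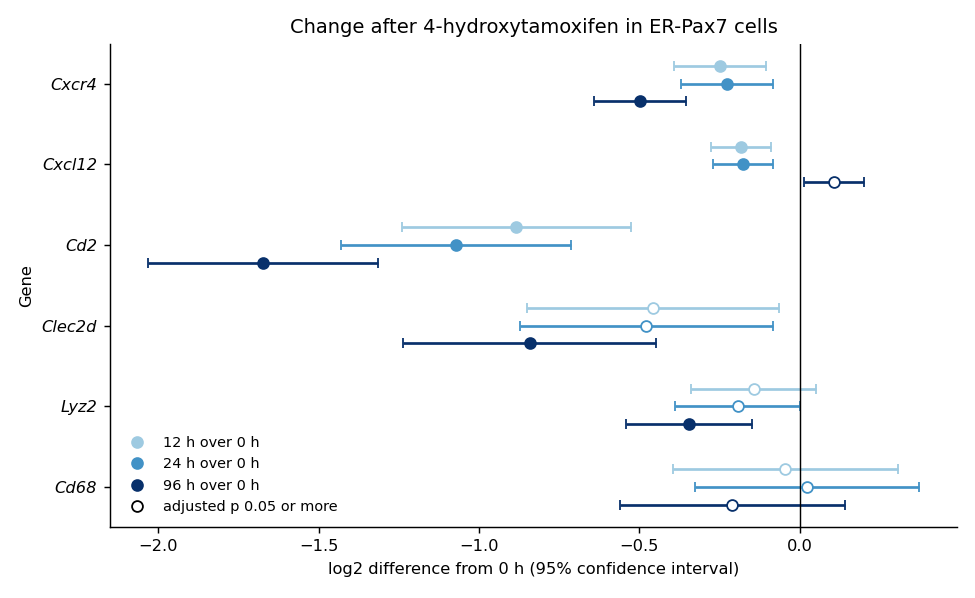
Log2 difference from 0 h with 95% confidence interval at 12, 24 and 96 h for the 6 genes tested in ER-Pax7 cells, on log2(scaled exon reads + 1). Filled points passed an adjusted p of 0.05 (limma), open points did not; at 96 h Cd2 (-1.67), Clec2d (-0.84), Cxcr4 (-0.50) and Lyz2 (-0.35) lie below 0.

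Across the 12 ER-Pax7 libraries Cxcr4 varied together with Clec2d (Pearson r = 0.91), Cd2 (0.87) and Lyz2 (0.79) on the log2 scale, while its r with Cxcl12 was -0.31 and with Cd68 0.49. These correlations are descriptions over 12 libraries that share 4 times, and carry no test. Among 591 genes with a mean of at least 20 scaled exon reads over the 12 libraries and a range of at least 0.5 (log2) between the group means, the 5 closest to Cxcr4 were Rian (r = 0.97), Podxl (0.96), Sln (0.95), 1500009L16Rik (0.95) and Six6 (0.95), all lower at 96 h than at 0 h (log2 -1.85 to -0.60). Rian is an imprinted noncoding RNA, Podxl encodes the sialomucin podocalyxin and Six6 is a homeodomain factor of eye and pituitary development. The genes closest to Cd2 were S100a14, Col28a1, Rassf2, Akr1c14 and Homer2 (r = 0.95 to 0.96), and those closest to Clec2d were Acoxl, Elmo1, Rian, Stard10 and Podxl (0.88 to 0.91). Those closest to Cxcl12 were Pstpip1, Capn9, Creb3l2, Bst2 and Slc2a6 (0.86 to 0.90), and those closest to Lyz2 were Anks1b, S100a13, Fchsd1, AW551984 and Syt5 (0.87 to 0.90). Rian and Podxl were thus among the 5 closest to both Cxcr4 and Clec2d.

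Lyz2 lies beside its near copy Lyz1 on chromosome 10, and the copies are shown because reads of one can map to the other. Their coding sequences of 447 bases, read from GENCODE transcripts, were identical at 425 bases (95.1%). The first 90 coding bases are printed with the 7 bases that differ in capitals.
Lyz2: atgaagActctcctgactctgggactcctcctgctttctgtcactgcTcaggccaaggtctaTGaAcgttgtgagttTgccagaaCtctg
Lyz1: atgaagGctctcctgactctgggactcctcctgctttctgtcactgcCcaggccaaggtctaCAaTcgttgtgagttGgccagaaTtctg

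Of the 50-base stretches of the Lyz2 transcript, 15.4% also occurred in Lyz1, so part of the Lyz2 reads could have come from either copy. Lyz1 had at most 8 reads in any ER-Pax7 library, against at least 386 for Lyz2, and at most 0.02 FPKM in Pax7 cells and 0.01 FPKM in Neo cells. Of the Clec2d transcript 1.98% of such stretches occurred in Clec2g or Clec2i, and the other 5 genes had none. No other gene in the GENCODE annotation overlapped any of the 7, which matters because reads were counted without strand.

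Calls among other chemokine ligands went both ways, and few of their receptors could be tested. Of 36 other chemokines 10 could be tested at 96 h against 0 h, with 3 lower, 2 higher and 5 not passing (median log2 -0.11, beside 0.00 for all genes tested). Of all genes tested at 96 h, 17.4% were called lower and 33.7% in either direction. Cxcl14 (-2.01 ± 0.18 SE, limma, adjusted p = 1.84e-08) and Cxcl13, the B cell chemokine (-1.32 ± 0.23, limma, adjusted p = 1.18e-04), were lower. Cx3cl1, the membrane-bound fractalkine, was higher (1.17 ± 0.21, limma, adjusted p = 1.46e-04). Mif, a cytokine that can also bind Cxcr4, was lower (-0.19 ± 0.06, limma, adjusted p = 0.0117), a call that ended without 0 h library 1 (-0.17, limma, adjusted p = 0.0517) or 96 h library 2 (-0.17, limma, adjusted p = 0.0602). Between Pax7 and Neo cells 36.7% of all genes tested were called (4917 genes, 50.5% of them higher; 3841 and 67.7% when scaled to library totals alone). Of the 7 other chemokines tested there, 3 were lower, 1 higher and 3 did not pass (median log2 -0.43, beside 0.01 for all genes), but Cxcl13 and Cx3cl1 reached the filter on low values only in the group where they were higher, so that count and median support nothing. Cxcl13 was at 0.02 FPKM in both Pax7 libraries, against 0.11 to 0.14 FPKM in Neo cells, and Cx3cl1 at 0.10 FPKM in both Pax7 libraries, against 0.02 and 0.03 FPKM in Neo cells. Cxcl14 was at -0.79 (limma, adjusted p = 0.0164) and Ccl27a at -0.43 (limma, adjusted p = 0.0254). The Cxcl14 call ended without Neo library 2 (-0.69) or Pax7 library 1 (-0.66, both limma, adjusted p = 0.0531), and that of Ccl27a ended without Neo library 2 or either Pax7 library (-0.49 to -0.34, limma, adjusted p 0.0535 to 0.0907). Of 21 other chemokine receptors 8 could be tested at 96 h, and only Ccr7, the lymph node homing receptor, was called (lower, -0.50 ± 0.16, limma, adjusted p = 0.0231; median of the list -0.11). The Ccr7 call ended with no filter (-0.50, limma, adjusted p = 0.0517) and without 0 h library 2 or 3 or 96 h library 2 or 3 (-0.48 to -0.38, limma, adjusted p 0.0621 to 0.123). Between Pax7 and Neo cells 5 receptors were tested, with 1 higher, 1 lower and 3 not passing (median log2 0.09). Ccr10, a receptor of skin-homing lymphocytes, was the higher one (0.54, limma, adjusted p = 0.0131), a call that ended without Pax7 library 2 (limma, adjusted p = 0.0516), and was at 35.0 to 48.7 scaled exon reads at 96 h, against 37.5 to 45.7 at 0 h.

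Among 34 genes that carry or end Cxcr4 signals, 27 could be tested at 96 h against 0 h. Of these 10 were lower, 5 higher and 12 did not pass (median log2 -0.08, beside 0.00 for all genes). Beside them, 17.4% of all genes tested were called lower and 33.7% in either direction. Rgs4, a GTPase-activating protein that ends G protein signals, was the most changed (1.57 ± 0.05 SE, limma, adjusted p = 8.13e-16), and Stat3 was also higher (0.48 ± 0.04, limma, adjusted p = 1.64e-08). The inhibitory G protein subunit Gnai2 (-0.38 ± 0.04, limma, adjusted p = 9.84e-07) and the beta subunit Gnb2 (-0.24 ± 0.03, limma, adjusted p = 8.14e-06) were lower. Between Pax7 and Neo cells 5 of the 22 tested were higher, 3 lower and 14 did not pass (median log2 -0.02), beside 36.7% of all genes called. The same 4 genes had the smallest p there, with Rgs4 at 1.26 (limma, adjusted p = 0.00139), Stat3 at 0.45 (limma, adjusted p = 0.00820), Gnb2 at -0.29 (limma, adjusted p = 0.00822) and Gnai2 at -0.35 (limma, adjusted p = 0.00961). The Gnb2 call ended without Pax7 library 1 (-0.28, limma, adjusted p = 0.0532).

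Most intracellular partners of Cd2 were expressed, while Cd48 and Klrb1b, an outside partner each of Cd2 and Clec2d, were at or near 0. Of the 8 Cd2 partners 6 had reads at 0 h, led by the adaptor Cd2ap, and the list summed to 3030 to 3180 scaled exon reads at 96 h, against 2913 to 2956 at 0 h. Cd48, the mouse ligand of Cd2, had no read in any ER-Pax7 library and was listed at 0 in Pax7 and Neo cells. The counts of calls at 96 h that follow stand beside 33.7% of all genes tested called in either direction. Of the 8 Cd2 partners 6 were tested at 96 h against 0 h, with 2 higher, none lower and 4 not passing (median log2 0.09): the adaptor Sh3kbp1 (0.31 ± 0.05 SE, limma, adjusted p = 1.84e-05) and the kinase Fyn (0.12 ± 0.03, limma, adjusted p = 0.00766). Between Pax7 and Neo cells Sh3kbp1 was also higher (1.05, limma, adjusted p = 0.00335), and Lck, the T cell kinase that binds Cd2, was lower (-0.54, limma, adjusted p = 0.00532). Of the 10 relatives and receptors of Clec2d 4 were tested at 96 h, with 2 lower, 1 higher and 1 not passing (median log2 -0.44). Klrb1a, an NK receptor, was lower (-1.28 ± 0.19, limma, adjusted p = 1.95e-05), and Clec2f was higher (0.25 ± 0.06, limma, adjusted p = 0.00398). Klrb1b, the receptor of Clec2d, stayed between 0 and 0.36 scaled exon reads. Of the 9 lysosomal membrane genes matched 8 were tested at 96 h, with 2 lower, 1 higher and 5 not passing (median log2 0.06). Lamp1, a relative of Cd68, was lower (-0.18 ± 0.03, limma, adjusted p = 3.56e-04), as was Scarb2 (-0.43 ± 0.03, limma, adjusted p = 4.55e-09), and Scarb2 was also lower in Pax7 than in Neo cells (-0.43, limma, adjusted p = 0.00484).

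Markers of cell identity were measured beside these changes, and their part in them was not tested. Their counts of calls at 96 h stand beside 33.7% of all genes tested called in either direction. Of 8 lymphoid markers tested at 96 h against 0 h, 1 was lower, 1 higher and 6 did not pass (median log2 0.13). Zap70, the T cell receptor kinase, was lower (-1.02 ± 0.23 SE, limma, adjusted p = 0.00184) and Cd7 higher (0.76 ± 0.22, limma, adjusted p = 0.0118), a call that ended without 0 h library 2 (0.68, limma, adjusted p = 0.0502). Cd7 was at 0.34 to 0.41 FPKM in Pax7 cells, against 0.06 to 0.09 FPKM in Neo cells, and reached the filter there only in Pax7 cells. Cd3g went the other way, at 0.09 to 0.13 FPKM in Pax7 cells, against 0.25 to 0.26 FPKM in Neo cells (log2 -0.81). Zap70 was at 0.05 to 0.07 FPKM in Pax7 cells, against 0.10 to 0.17 FPKM in Neo cells. Of the 4 lymphoid markers tested there, 1 was higher, 1 lower and 2 did not pass (median log2 -0.31), beside 36.7% of all genes called. The abundant Cd247 was at 0.05 at 96 h (limma, adjusted p = 0.499). Of 7 myeloid markers tested at 96 h, Coro1a (-0.47 ± 0.08, limma, adjusted p = 1.11e-04) and the complement gene C1qa (-1.07 ± 0.21, limma, adjusted p = 5.66e-04) were lower, the mannose receptor Mrc1 was higher (0.95 ± 0.18, limma, adjusted p = 4.05e-04) and 4 did not pass (median log2 -0.08). Coro1a was also lower in Pax7 than in Neo cells (-0.58, limma, adjusted p = 0.00478), the only myeloid marker tested there. Of 5 melanotrope markers 4 were tested at 96 h and 3 were higher, led by Oacyl (5.57, limma, adjusted p = 6.79e-17) and the prohormone convertase Pcsk2 (1.46, limma, adjusted p = 1.59e-15). Of the 7 corticotrope markers 4 were higher and 2 lower at 96 h, with Tbx19 at 0.28 (limma, adjusted p = 1.23e-05) and Nr3c1, the glucocorticoid receptor, at -0.26 (limma, adjusted p = 2.12e-05). Between Pax7 and Neo cells the balance was the other way, with 1 higher, 4 lower and 2 not passing (median log2 -0.20). Pcsk1 was the higher one (0.74), and Nr3c1 was among the lower ones (-0.54). Of 5 fibroblast and endothelial markers tested at 96 h only Col1a1 was called (lower, -0.43, limma, adjusted p = 0.0140), a call that ended without 0 h library 2 (-0.33, limma, adjusted p = 0.0872) or 96 h library 3 (-0.36, limma, adjusted p = 0.0714).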

How the data were processed

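Total RNA of AtT-20 cells was ribosome-depleted and read as paired ends of 50 bp, as the labels' protocols give it. The submitters' processing notes list TopHat, HOMER, edgeR and the build mm10 (GRCm38), with no version numbers. For ER-Pax7 cells the authors deposited a signal of unstranded exon reads per RefSeq gene, scaled so that each library sums to about 7213574. For Pax7 and Neo cells the authors deposited FPKM over gene bodies, each library summing to about 120820. The authors' deposited log2 folds and FDR (adjusted p-values, from edgeR per the file headers) were used for comparison only. Low ER-Pax7 values were whole multiples of 1 read in 100% of cases (tolerance 0.1 reads), which gave back whole reads. The counting errors given come from these reads. The 95% intervals come from limma on the scaled values and reflect the spread between libraries.

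The 7 genes, the gene lists and the tests were chosen with earlier results of these data known. Groups were read from the labels. As neither table holds raw counts, limma 3.58.1 (R 4.3.3, empirical Bayes with trend) was run on log2 of values divided by TMM factors (edgeR 4.0.16) with a pseudocount of 1 scaled exon read or 0.1 FPKM, after a filter of at least 1 scaled exon read in 3 libraries (15188 genes) or 0.1 FPKM in 2 (13393 genes). The 12 ER-Pax7 libraries shared 1 model. Benjamini-Hochberg adjustment ran over all genes tested, and the threshold was 0.05. The procedure was tested on simulated data. From each list, up to 4 genes with the smallest adjusted p among those passing in Pax7 against Neo and in 96 h against 0 h were eligible to be named; others named (such as Ptprc, Cd48, Klrb1b and Cd247) were chosen for their role or after their values were seen. Alternatives were other pseudocounts, scalings and filters, a replicate block, each library left out, only the 2 groups compared, and edgeR and DESeq2 1.42.0 on recovered reads.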

Additional observations from a re-analysis of the deposited data

Results flagged for a closer look

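Cxcl12 at the earlier times went the opposite way to Pax7 against Neo, in every library. It was lower at 12 h (log2 difference -0.183246) and at 24 h (-0.178319) than at 0 h in ER-Pax7 cells, and higher in Pax7 than in Neo cells (0.17). At 96 h its deposited values were above those at 0 h in every library, but not after division by TMM factors. The log2 difference at 96 h was 0.11, not past the threshold, in the same direction as in Pax7 cells. Clec2d also went opposite ways in every library, lower at 96 h than at 0 h in ER-Pax7 cells (-0.842617) and higher in Pax7 than in Neo cells (1.57). These differences between systems were not tested, since the tables hold different quantities (exon reads and gene-body FPKM) that were scaled separately.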

How the results depend on the processing

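The calls at 96 h against 0 h for Cxcr4, Cd2, Clec2d and Lyz2 held in all 21 alternatives, with log2 differences of -0.55 to -0.45 for Cxcr4, -1.80 to -1.22 for Cd2, -0.98 to -0.41 for Clec2d and -0.37 to -0.30 for Lyz2. Other Cxcr4 calls sat near the threshold. At 12 h its call was lost with no filter (-0.2463, limma, adjusted p = 0.053) and with only the 2 groups compared in the fit (-0.245, limma, adjusted p = 0.059), and single left-out libraries gave -0.2996 to -0.2126. At 24 h it was lost when scaled to library totals alone (-0.2088, limma, adjusted p = 0.051) and with only the 2 groups (-0.2267, limma, adjusted p = 0.0521), and single left-out libraries gave -0.2773 to -0.1881. For 96 against 24 h single left-out libraries gave -0.3085 to -0.225, and for 24 against 12 h -0.02432 to 0.0606. With 1 FPKM added, Cxcr4 in Pax7 against Neo was -1.546. The cause was not tested.

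Differences near 0 changed sign on leaving out 1 library, none of them called. For Cd68 they ranged from -0.1154 to 0.06013 at 12 h, from -0.1337 to 0.1618 at 24 h and from -0.09009 to 0.2054 at 24 against 12 h. At 24 against 12 h they ranged from -0.171 to 0.1798 for Clec2d, from -0.0162 to 0.03863 for Cxcl12 and from -0.1288 to 0.05017 for Lyz2.

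Genes called at 24 against 12 h numbered 26, and 17 with no filter, 16 with only the 2 groups, 89 by DESeq2, 54 with the replicate block and 11 to 31 without 1 library. At 96 against 24 h 1929 genes were called, and 1268 to 2116 without 1 library (1268 without 96 h library 2). In Pax7 against Neo 4917 genes were called, and 2001 to 2928 without 1 library, where a lone library is assumed to vary like the other group; fewer samples enter such fits. Replicate numbers share no stated origin. Same-numbered ER-Pax7 libraries correlated at -0.08 to 0.14 in their deviations from the group means, over 0.1 in 1 of 18 pairs. Different-numbered ones correlated at -0.13 to 0.10. Among 0, 12 and 96 h, all same-numbered pairs were positive (0.014 to 0.087). The main fit did not treat them as pairs, and a shared origin was not tested. With the replicate block, calls against 0 h rose from 986 to 1271 at 12 h and from 2056 to 2515 at 24 h. They rose from 5124 to 5755 at 96 h, and from 1929 to 2506 at 96 against 24 h. With the replicate block the 96 h Cxcl12 difference passed (0.11, limma, adjusted p = 0.0337), and no other call among the 7 genes changed. Depth limits Clec2d and Cd68 most, with 42 to 103 reads per library.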
